A study of Mus musculus with 4 samples.

Results

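The MHC class II genes are described here across the immune cells of the mouse lung. The set held 10 of the 31053 genes in the files and was chosen by gene symbol, without use of any measured value: H2-Aa, H2-Ab1, H2-Eb1, H2-Eb2, H2-DMa, H2-DMb1, H2-DMb2, H2-Oa, H2-Ob and Cd74. The cells came from male C57BL/6 mice aged 5 to 10 weeks in which both Ift20 alleles were floxed (Ift20 f/f, called WT) or were floxed and combined with a CD4 cre transgene (Ift20 f/f CD4 cre, called KO). The floxed alleles were thus shared by all groups, and the Cre transgene, which is active in developing T cells and therefore reaches CD8 as well as CD4 T cells, was carried by the KO groups. Papain mice received 25 µg of the protease into the nose on 3 consecutive days and again on day 14, and DPBS mice carry the label of the buffer in its place. On day 15 lung cells that were CD45.2-positive and 7-AAD-negative were sorted, and the 10x Genomics 3′ v3 kit gave 1 library per group. The comparisons asked how the levels of the class II genes differed with papain in each genotype, and with genotype in each treatment. Where 4 values stand in a row, they belong to the libraries in this order: the DPBS libraries of WT and KO first, then the papain libraries of WT and KO.

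Because each group is a single library, differences between groups could not be tested, genotype or treatment cannot be told apart from the library, and the labels do not say how many mice entered a library. Intervals cover counting error only, at 95%, and no p-value was computed. Levels are CPM, the unique molecular identifiers (UMIs) of a gene per 1000000 UMIs of the same cells.

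MHC class II molecules present peptides, taken mainly from outside the cell, to CD4 T cells. H2-Aa and H2-Ab1 encode the alpha and beta chains of the I-A heterodimer and H2-Eb1 the beta chain of I-E, whose alpha chain is not made in C57BL/6 mice. Cd74 encodes the invariant chain, which escorts new class II molecules to endosomes, where H2-DM removes the last piece of it and loads peptide, while H2-DO restrains H2-DM. Transcription depends on the coactivator CIITA, which docks on factors bound to the X and Y boxes upstream of each gene. B cells and dendritic cells (DC) express the genes constitutively, and resting mouse T cells express few or none of them.

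Of the set, 9 genes lay within 249.073 kb of chromosome 17 (GRCm38, positions from GENCODE M21), from H2-Oa at 34092340 to the end of H2-Eb2 at 34341412. The order along the chromosome was H2-Oa (34092340 to 34095234), H2-DMa (34119541 to 34139101), H2-DMb2 (34143307 to 34151555), H2-DMb1 (34153072 to 34160230), H2-Ob (34238903 to 34254414), H2-Ab1 (34257689 to 34269419), H2-Aa (34282744 to 34287823, the only member of these 9 on the minus strand), H2-Eb1 (34305867 to 34316674) and H2-Eb2 (34325665 to 34341412). Exons of H2-Oa overlap those of BC051537, and exons of H2-DMa overlap those of Brd2, on the other strand. Whether counting used the strand is not given in the sources used here, so the counts of H2-Oa and H2-DMa are uncertain to that extent.

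Promoters are shown because the set is defined by a shared regulatory design. RefSeq promoters (GRCm38.p6) were matched for 8 of the 10 members, and H2-Ab1 and Cd74 were not among them. The 2 promoters of H2-DMa held no X core and are not shown. For each of the other 7 members a line gives the 110 bases that end at a CCAAT motif read on the other strand, written 5′ to 3′ along the gene. The capitals at the end mark this motif, read here as ATTGG (the core of the Y box), and the capitals further to the left mark a match to the X core, searched on both strands as AG, any 2 bases, AC, any base and GATG.
H2-Aa, chr17:34287867-34287976, minus strand: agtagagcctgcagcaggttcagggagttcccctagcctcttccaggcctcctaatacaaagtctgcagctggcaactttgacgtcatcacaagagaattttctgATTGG
H2-Eb1, chr17:34305703-34305812, plus strand: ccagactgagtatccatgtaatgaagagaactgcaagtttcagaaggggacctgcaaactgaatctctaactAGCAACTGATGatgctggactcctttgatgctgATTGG
H2-Eb2, chr17:34325470-34325579, plus strand: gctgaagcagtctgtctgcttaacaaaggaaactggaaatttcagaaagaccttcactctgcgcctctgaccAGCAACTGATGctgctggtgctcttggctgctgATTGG
H2-DMb1, chr17:34153025-34153134, plus strand: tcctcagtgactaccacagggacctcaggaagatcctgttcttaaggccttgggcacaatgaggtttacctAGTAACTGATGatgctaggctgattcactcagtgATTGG
H2-DMb2, chr17:34145054-34145163, plus strand: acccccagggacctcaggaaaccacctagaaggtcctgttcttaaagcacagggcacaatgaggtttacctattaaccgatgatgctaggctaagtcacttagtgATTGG
H2-Oa, chr17:34092231-34092340, plus strand: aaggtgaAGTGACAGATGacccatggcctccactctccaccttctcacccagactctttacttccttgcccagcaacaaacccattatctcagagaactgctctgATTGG
H2-Ob, chr17:34238743-34238852, plus strand: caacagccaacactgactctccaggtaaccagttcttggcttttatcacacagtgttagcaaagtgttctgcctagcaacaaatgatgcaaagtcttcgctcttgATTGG

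The stretches were drawn to end at the CCAAT core, so its presence in all 7 is no result, and 33.8% of the 32851 promoters searched hold it in the 250 bases upstream. An exact X core was found in 4 of the 8 members matched, H2-Eb1, H2-Eb2, H2-DMb1 and H2-Oa, against 0.816% of all promoters, and the pair of motifs in 0.292%. The motif letters were chosen after the data were seen, so the contrast with all promoters is a description and no test. The X core began 33 bases before ATTGG in H2-Eb1 and H2-Eb2, 34 bases before it in H2-DMb1, and 98 bases before it in H2-Oa. In H2-DMb2 and H2-Ob the nearest stretch missed 1 of the 8 fixed letters, 34 and 31 bases before ATTGG, and 17.5% of all promoters held a stretch that close or closer to the motif. H2-Aa had no stretch with fewer than 3 mismatches, which says only that these letters are not in its window. The promoter stretches of H2-DMb1 and H2-DMb2 agreed in 88 of 99 aligned bases (88.9%).

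Cells were clustered with the 10 members, Ciita and Ift20 kept out of the genes used, and clusters were named from markers that hold none of the members. Filters kept 7613, 5444, 7483 and 5442 cells, with median depths of 5859, 6544.5, 6219 and 6690 UMIs per cell, and the libraries shared between 7 and 16 barcodes per pair. Of the kept cells 91.6%, 91.4%, 93.8% and 93.8% held a UMI of Ptprc, which encodes CD45, the antigen of the sort. In CD4 T-like cells Ift20 stood at 56.1, 21.8, 58.9 and 18.5 CPM, lower in both KO libraries. Its remaining UMIs check only the 3′ end of the transcript, which the deletion of exons 2 and 3 leaves in place. In B-like cells Ift20 stood at 43.9, 34.6, 38.9 and 40.2 CPM.

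The summed level of H2-Aa, H2-Ab1 and H2-Eb1, the classical chains, ordered the cell classes over a wide range. Conventional DC type 2-like cells had the highest median over the 4 libraries, 35346 CPM, and their values overlapped those of conventional DC type 1-like cells (median 31359.9 CPM). Interstitial macrophage-like cells followed with 21175 CPM and overlapped neither neighbour in this order, and B-like cells with 13759 CPM overlapped mature DC-like cells (12345.5 CPM). Monocyte-like cells reached 3606 CPM, alveolar macrophage-like cells 425 CPM, CD4 T-like cells 130.0 CPM, ILC2-like cells 79.4 CPM and CD8 T-like cells 74.0 CPM. The neighbouring T and innate lymphoid classes overlapped one another and natural killer (NK)-like cells (127 CPM).

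**Figure D1:**
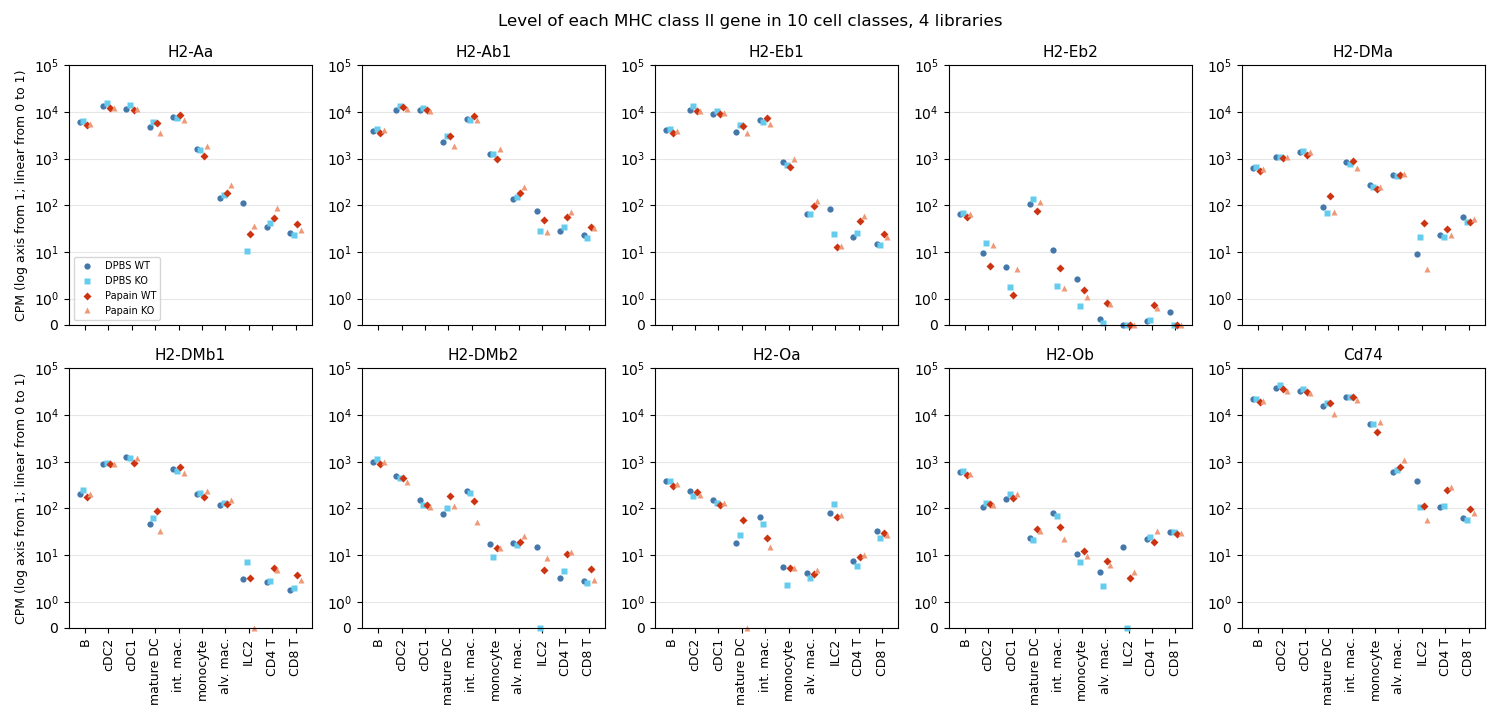
Level of each class II member (CPM, log axis) in 10 cell classes, with 1 point for each of the 4 libraries. In cDC2-like cells H2-Aa sits between 12311 and 15427 CPM, in alveolar macrophage-like cells between 147 and 275 CPM, and H2-Oa in ILC2-like cells lies between 66.4 and 123 CPM.

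B-like cells, 2274, 1487, 2117 and 1752 in number, carried H2-Aa at 6091, 6361, 5169 and 5439 CPM. H2-Ab1 stood at 3855, 4301, 3523 and 4031 CPM, and H2-Eb1 at 4198, 4283, 3567 and 3904 CPM. For all 3 chains the lowest library was Papain WT and the highest DPBS KO, and at least 99.7% of the B-like cells held a UMI of each. H2-Eb2, a second I-E beta gene next to H2-Eb1, stood at 66.4, 69.9, 57.2 and 63.7 CPM and was thus far below its neighbour. The transcripts of the H2-Eb pair were 73.59% identical over 996 aligned bases and shared no run of 50 bases.

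In conventional DC type 2-like cells (53, 47, 111 and 52 cells) H2-Aa stood at 13132, 15427, 12311 and 12479.8 CPM. H2-Ab1 stood at 11273, 13414, 12552 and 11524 CPM and H2-Eb1 at 11036, 13247, 10389 and 10422 CPM. Conventional DC type 1-like cells (23, 31, 45 and 32 cells) carried H2-Aa at 11429.7, 14171, 11219.7 and 11470 CPM. In both DC classes DPBS KO was the highest library for every classical chain. H2-Eb2 was nearly absent there, with 8, 12, 10 and 16 UMIs in type 2-like and 2, 1, 1 and 3 UMIs in type 1-like cells.

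Mature DC-like cells (17, 13, 50 and 10 cells), led by Fscn1 and Cacnb3, differed from the other DC in their class II profile. Their H2-Aa level was 4799.8, 6248, 5773 and 3562 CPM, below both conventional DC classes in every library. H2-Eb2 stood at 109, 137, 76.9 and 117 CPM, on 24, 20, 51 and 18 UMIs, the highest of the 10 classes plotted in each library. H2-DMa stood at only 90.9, 68.6, 158 and 71.6 CPM there, against 1065, 1078, 1044 and 1107 CPM in conventional DC type 2-like cells. Ciita, at 36.4, 54.9, 86.0 and 78.1 CPM, and March1, the ubiquitin ligase that removes class II from the surface, at 0, 0, 3.02 and 0 CPM, were also lower than in conventional DC type 2-like cells, where March1 stood at 55.3, 34.4, 38.2 and 47.2 CPM. Cd83, which opposes March1, stood at 1836, 1934, 1467 and 1556 CPM in mature DC-like cells.

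Interstitial macrophage-like cells (50, 34, 126 and 67 cells), led by C1qa, C1qb and C1qc, carried H2-Aa at 7951, 7501, 8500 and 6905 CPM. H2-Ab1 stood at 7021, 6771, 8273 and 6715 CPM and H2-Eb1 at 6852, 6255, 7478 and 5567 CPM. Papain WT was the highest and Papain KO the lowest library for each chain. Ctss, the cathepsin that trims the invariant chain, stood at 3295, 2846, 3712 and 3965 CPM in these cells against 512, 455, 462 and 454 CPM in B-like cells.

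Alveolar macrophage-like cells, 1334, 1125, 792 and 505 in number, held little of the classical chains. H2-Aa stood at 147, 163, 185 and 275 CPM, H2-Ab1 at 138, 151, 188 and 250.2 CPM and H2-Eb1 at 66.4, 64.2, 97.8 and 126 CPM. Papain KO was the highest library for each, and the summed level was 2.48% to 4.87% of that in the B-like cells of the same library. Markers of B cells stood between 0.138% and 1.62% of their B-like level in these cells, the classical chains and Cd74 between 1.499% and 6.21%. In a median alveolar macrophage-like cell the classical chains reached 60.9, 75.9, 94.5 and 140.4 CPM, while 10.4%, 12.5%, 10.7% and 17.6% of the cells were over 1000 CPM.

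Monocyte-like cells (646, 571, 891 and 550) carried H2-Aa at 1582, 1514, 1165 and 1869 CPM, with Papain WT lowest and Papain KO highest. The level was spread very unequally over cells. In a median cell the classical chains summed to 139.6, 167, 152 and 218 CPM, while the cell at the 90th percentile reached 11697, 10119, 7782 and 13148 CPM. Cells over 1000 CPM made up 28.9% (exact binomial interval 25.5 to 32.6), 31.7% (27.9 to 35.7), 25.5% (22.6 to 28.5) and 33.5% (29.5 to 37.6). B-like cells by contrast had medians of 14547, 15031, 13315 and 14005 CPM, and at most 0.0672% of them held no UMI of the 3 chains.

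In ILC2-like cells (70, 50, 85 and 79 cells, led by Il1rl1 and Arg1) H2-Aa had 37, 3, 15 and 16 UMIs in all, or 112, 10.5, 23.7 and 35.3 CPM. The 37 UMIs of DPBS WT lay in 10 cells. The classical chains and Cd74 stood at 0.165% to 2.02% of the B-like level, and the B cell markers in the same cells at 0 to 2.98%, so the ranges overlapped. In CD4 T-like cells H2-Aa, at 33.9, 41.1, 54.8 and 87.2 CPM, and the other chains and Cd74 stood at 0.476% to 1.79% of the B-like level against 0.199% to 1.93% for the B cell markers. The ranges overlapped in both WT libraries, but in both KO libraries the chains and Cd74 lay above all 5 markers, at 0.490% to 0.787% against 0.276% to 0.487% in DPBS KO and 1.43% to 1.79% against 1.10% to 1.39% in Papain KO. In CD8 T-like cells, with H2-Aa at 25.9, 22.9, 39.7 and 29.4 CPM, the ranges were 0.247% to 0.977% and 0.137% to 1.34%. The markers did not lie on one side there. Cd79b lay above the chains and Cd74 in every library, at 0.796% to 1.34%. Cd79a (0.150% to 0.433%) and Ms4a1 (0.138% to 0.360%) lay below the chains and Cd74 of the same library in every library. Free RNA and joined cells were not told apart from expression at these levels.

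**Figure D2:**
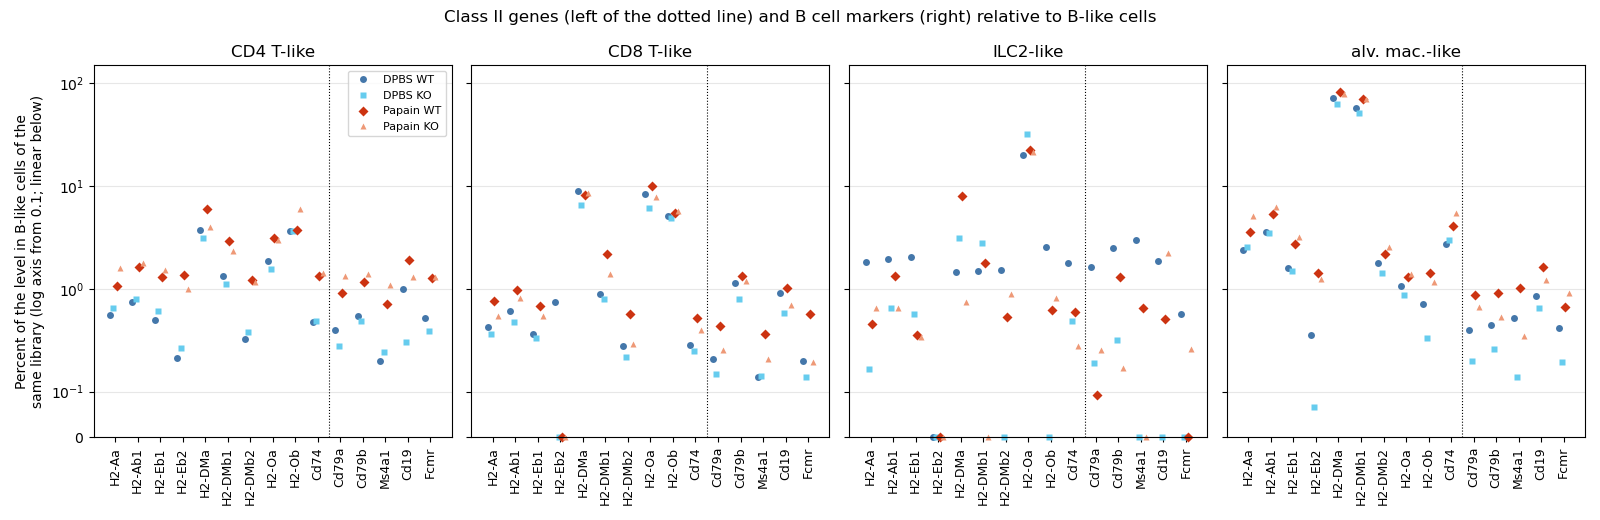
Level of the 10 members (left of the dotted line) and of 5 B cell markers (right) in 4 cell classes, as percent of the level in the B-like cells of the same library, with 1 point for each of the 4 libraries. In T-like and ILC2-like cells the classical chains, Cd74 and the B cell markers lie at or under 2.98%, while in alveolar macrophage-like cells the classical chains and Cd74 reach 6.21% and the B cell markers 1.62%.

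Cd74 lies on chromosome 18 (60803848 to 60812652, plus strand) and its exons overlap Mir5107. It was the most abundant member in every class of antigen-presenting cell, with 21976, 22516, 18669.8 and 19699 CPM in B-like cells. Conventional DC type 2-like cells carried it at 37845, 44541, 35995 and 32678 CPM and conventional DC type 1-like cells at 32564, 37070, 30816 and 30157 CPM. Interstitial macrophage-like cells stood at 23895, 23802, 24892 and 20976 CPM, close to the B-like level. The v3 chemistry counts the 3′ end of each transcript, so the counts were not divided by transcript length, and proportions between members are proportions of counted molecules. Per 100 UMIs of Cd74 there were 27.6 to 28.2 UMIs of H2-Aa in B-like cells, 34.2 to 38.2 in conventional DC type 2-like and 35.1 to 38.2 in conventional DC type 1-like cells. The proportion was 24.0 to 25.5 in alveolar macrophage-like and 23.1 to 26.3 in monocyte-like cells, so H2-Aa and Cd74 kept a similar proportion over levels that differed widely.

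Of the H2-DM genes, H2-DMa and H2-DMb1 did not follow the classical chains, while H2-DMb2 was as low as they were in alveolar macrophage-like cells. H2-DMa, the alpha chain of the peptide exchanger, stood at 618, 675, 536 and 588 CPM in B-like cells and at 444, 428, 441 and 466 CPM in alveolar macrophage-like cells, which is 71.9%, 63.4%, 82.2% and 79.3% of the B-like level. H2-DMb1, a beta chain, stood at 203, 251, 175 and 208 CPM in B-like and at 117, 128, 123 and 148 CPM in alveolar macrophage-like cells, or 57.7%, 51.1%, 70.3% and 71.2%. H2-DMb2, the beta chain copy that prevailed in B-like cells, stood at only 1.80%, 1.43%, 2.19% and 2.57% of the B-like level there. The classical chains and Cd74 stood at 1.499% to 6.21%. For 1 UMI of the invariant chain alveolar macrophage-like cells thus held far more H2-DMa than the other presenting cells. Per 100 UMIs of Cd74 there were 73.7, 63.7, 57.2 and 43.2 UMIs of H2-DMa, against 2.81 to 3.00 in B-like cells. A UMI of H2-DMa was found in 99.2%, 97.6%, 96.3% and 99.0% of the alveolar macrophage-like cells, and in 36.4%, 35.3%, 36.4% and 37.0% after each cell was thinned to 1000 UMIs. In CD4 T-like cells the shares were 10.96%, 10.8%, 14.9% and 12.01%, and 2.33%, 2.01%, 3.34% and 2.004% when thinned. Median depths before thinning were 16846.5 to 19600 UMIs in alveolar macrophage-like and 5287 to 6252 UMIs in CD4 T-like cells.

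H2-DMb1 and H2-DMb2 are neighbouring copies of the beta chain gene, and cells used them differently. B-like cells held mainly H2-DMb2, at 1002, 1168, 883 and 989 CPM, which is 493, 465, 503 and 474 UMIs per 100 UMIs of H2-DMb1. Conventional DC type 1-like cells held mainly H2-DMb1, at 1238, 1229, 939.7 and 1218 CPM, with 12.2, 9.84, 12.7 and 8.80 UMIs of H2-DMb2 per 100. Alveolar macrophage-like cells had 15.3, 12.98, 15.6 and 17.1, monocyte-like cells 8.46, 4.23, 7.93 and 6.14, and conventional DC type 2-like cells 54.3, 46.7, 50.1 and 41.1. No library of any of these 4 classes came near the B-like proportion. The proportion in interstitial macrophage-like cells was 34.2, 34.1, 18.0 and 8.84, lower in both papain libraries. Of these cells 34%, 38.2%, 40.5% and 37.3% held a UMI of a B cell marker, and the part of B cell RNA in the proportion was not tested. Mature DC-like cells had 170, 167, 207 and 340, on 5 to 58 UMIs of H2-DMb1 per library, and CD4 T-like cells overlapped them at 121, 160, 206 and 235. The 2 transcripts were 94.42% identical over 1255 aligned bases, and 92 of 451 runs of 50 bases in the last 500 bases of H2-DMb1 also occur unchanged in H2-DMb2, so some reads may not have been assigned to either copy, by an amount that was not measured here.

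**Figure D3:**
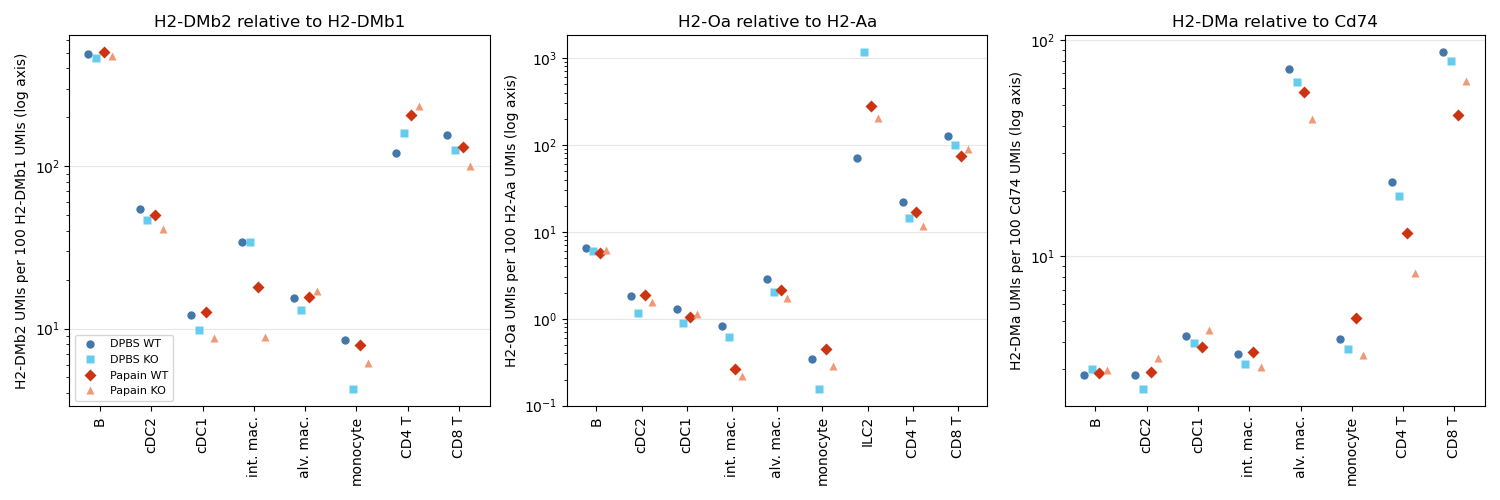
UMIs of one member per 100 UMIs of another (log axis) by cell class, with 1 point for each of the 4 libraries. H2-DMb2 per 100 H2-DMb1 lies between 465 and 503 in B-like cells and between 8.80 and 12.7 in cDC1-like cells.

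The H2-DO genes were highest in B-like cells in every library. H2-Ob, the beta chain, stood at 594, 644, 512 and 536 CPM in B-like cells, 158, 200.3, 167 and 204 CPM in conventional DC type 1-like cells and 104.7, 131, 125 and 121 CPM in conventional DC type 2-like cells. Per 100 UMIs of H2-DMa, the target that H2-DO restrains, there were 96.3, 95.5, 95.4 and 91.2 UMIs of H2-Ob in B-like cells. The proportion was 11.3 to 14.8 in conventional DC type 1-like and 9.83 to 12.2 in conventional DC type 2-like cells. H2-Oa, the alpha chain, stood at 392, 380.2, 298 and 339 CPM in B-like cells and at 238, 181, 229 and 197 CPM in conventional DC type 2-like cells.

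H2-Oa was also found in cells with low levels of the classical chains. In ILC2-like cells it stood at 78.8, 123, 66.4 and 72.8 CPM on 26, 35, 42 and 33 UMIs, which is 20.1%, 32.2%, 22.3% and 21.5% of the B-like level and above the 0 to 2.98% of the B cell markers there. A UMI was found in 28.6% (18.4 to 40.6), 40% (26.4 to 54.8), 35.3% (25.2 to 46.4) and 31.6% (21.6 to 43.1) of the ILC2-like cells. NK-like cells, of like depth (medians of 4988 to 5734.5 UMIs against 4919 to 5830 UMIs), held one in 4.38%, 3.03%, 3.45% and 3.26%. Thinned to 1000 UMIs per cell, the shares were 7.25%, 10%, 4.71% and 5.06% in ILC2-like and 0.625%, 0, 1.72% and 0 in NK-like cells. Its partner H2-Ob had only 5, 0, 2 and 2 UMIs in ILC2-like cells. In ILC2-like cells without any B cell marker UMI, H2-Oa stood at 74.5, 128, 71.6 and 76.2 CPM, against 67.7, 106, 129.7 and 58.4 CPM for Cd74 and 8, 3, 13 and 13 UMIs of H2-Aa.

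CD8 T-like cells held both H2-DO genes, with H2-Oa at 33.0, 23.2, 29.7 and 26.3 CPM and H2-Ob at 30.5, 31.5, 27.9 and 30.4 CPM. These levels were 6.10% to 9.98% and 4.89% to 5.67% of the B-like ones, above the B cell markers in the same cells. H2-DMa stood there at 55.3, 44.3, 43.5 and 50.6 CPM, or 6.57% to 8.95%. In the CD8 T-like cells without a B cell marker UMI the 3 levels were 22.8 to 31.8 CPM for H2-Oa, 27.2 to 33.1 CPM for H2-Ob and 43.1 to 54.1 CPM for H2-DMa. In CD4 T-like cells H2-Oa stood lower, at 7.37, 5.95, 9.26 and 10.1 CPM, and H2-Ob at 22.0, 23.8, 19.0 and 32.4 CPM.

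Ciita, which encodes the coactivator, was high in the B-like and conventional DC-like classes and low in alveolar macrophage-like and T-like cells, but B-like cells lay above conventional DC type 2-like and interstitial macrophage-like cells in every library, unlike for the classical chains. It stood at 167, 126, 157 and 144 CPM in B-like cells, at 151, 118, 153 and 114 CPM in conventional DC type 2-like cells, and at 96.3, 49.8, 100.2 and 58.2 CPM in interstitial macrophage-like cells. The margin over conventional DC type 2-like cells was small outside Papain KO, and was not compared with counting error. Monocyte-like cells carried 28.9, 14.9, 21.7 and 19.1 CPM, alveolar macrophage-like cells 3.42, 4.08, 3.70 and 5.06 CPM, and CD4 T-like cells at most 2.84 CPM. Of the factors that bind the X and Y boxes, Rfxap stood at 28.2, 30.9, 29.6 and 29.1 CPM in B-like and 39.3, 38.5, 39.0 and 35.9 CPM in CD4 T-like cells, so it did not separate cells with and without class II.

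The genes outside the set whose mean log2(CPM + 10) was most like that of H2-Aa, H2-Ab1, H2-Eb1 and Cd74, among 7706 genes over 55 points of class and library, were Ciita (Pearson r = 0.93), Cd86 (0.93), Plekho1 (0.92), Cd83 (0.92) and Fgd2 (0.91). For H2-DMa and H2-DMb1 they included Gdi2 (0.91), Erp29 (0.87), Wdfy4 (0.87) and Plekho1 (0.87). For H2-Oa and H2-Ob they were Siglecg (0.91), Fchsd2 (0.87), Trim7 (0.85), Fcrla (0.84) and Ildr1 (0.84). The points share libraries and classes, and the coefficients are descriptions.

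The comparisons between libraries used the log2 ratio of CPM in 9 classes, with a ratio past 1.5-fold counted where the 2 libraries together held at least 20 UMIs of the member. The same count over all genes of a class gives the background, written below as a percent of the genes over that floor. The comparisons share libraries, so each is read by its own values. Scaling by the trimmed mean of M-values in place of total UMIs moved ratios by over 0.1 in 5 of 36 cases: by 0.16 (DPBS KO against DPBS WT) and -0.15 (Papain KO against DPBS KO) in conventional DC type 2-like cells, by 0.14 in conventional DC type 1-like cells (DPBS KO against DPBS WT), and by -0.14 (Papain WT against DPBS WT) and 0.11 (Papain KO against Papain WT) in CD4 T-like cells.

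**Figure D4:**
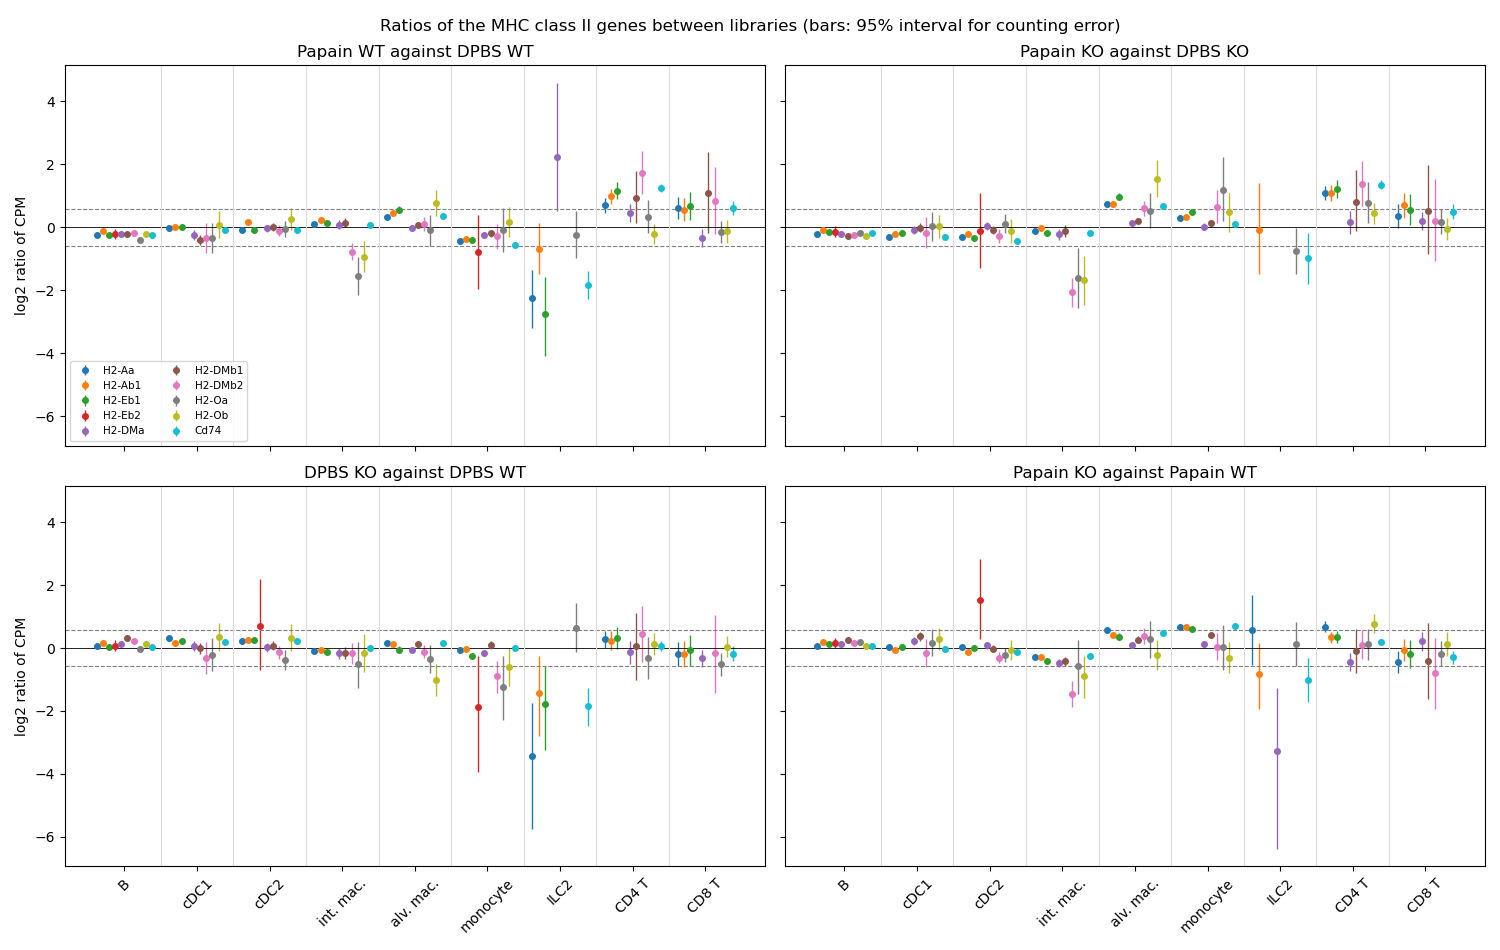
Log2 ratio of CPM of each member in 9 cell classes for the 4 comparisons, with bars for the 95% counting interval and dashed lines at 1.5-fold. In B-like cells all members lie inside the lines, while H2-Aa, H2-Ab1, H2-Eb1 and Cd74 of monocyte-like cells lie between 0.61 and 0.69 in Papain KO against Papain WT.

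B-like cells showed small ratios in the same direction with papain in both genotypes. In Papain WT against DPBS WT all 10 members were lower, by a log2 ratio of -0.13 for H2-Ab1 to -0.40 for H2-Oa, each with its counting interval below 0. None was past 1.5-fold, where 12.5% of all genes were. In Papain KO against DPBS KO the ratios ran from -0.09 to -0.27, with 9 of 10 intervals below 0 and 0 of 10 past 1.5-fold against 7.48%. The members' medians were -0.22 and -0.20, beside 0.03 and 0.01 over all genes. In the B-like clusters led by Fcrla and Ebf1, by Fcer2a and Cr2, by Sox5 and Zbtb32, and by interferon-induced genes, the summed classical chains were lower with papain in each genotype: 15554 against 14733 CPM, 14166 against 12515 CPM, 10051 against 8607 CPM and 13571 against 12519 CPM in WT, and 16287 against 15204 CPM, 13137 against 12697 CPM, 10971 against 9599.8 CPM and 15729.8 against 14101 CPM in KO. By genotype, 0 of 10 members were past 1.5-fold in DPBS (background 9.46%; -0.04 to 0.30) and 0 of 10 in papain (8.95%; 0.07 to 0.25). Of the regulators list, Ciita among them, 0 of 8 genes were past 1.5-fold in each of the 4 comparisons.

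Conventional DC-like cells differed little in the abundant members. With papain 0 of 9 members over the floor were past 1.5-fold in type 1-like cells in each genotype (26.9% of all genes in WT, 23.8% in KO), and 0 of 9 in WT (24.6%) and 0 of 10 in KO (25.2%) in type 2-like cells. In KO type 2-like cells Cd74 was lower with papain by -0.45 (-0.47 to -0.43) and H2-Eb1 by -0.35 (-0.38 to -0.31), and DPBS KO was the high library behind both. By genotype, type 1-like cells had 0 of 9 in DPBS (25.8%) and 0 of 9 in papain (22.3%). In type 2-like cells only H2-Eb2 was past 1.5-fold, in 1 of 10 members in DPBS (26.1%) at 0.70 (-0.71 to 2.20; -0.14 as the mean over cells) and 1 of 10 in papain (20.3%) at 1.51 (0.28 to 2.81), on the few UMIs given above. The costimulation list, by comparison, had Cd80 at 58.8, 103, 108 and 75.2 CPM and Cd40 at 38.8, 82.8, 133 and 55.9 CPM in type 2-like cells, and 2 of its 4 genes were past 1.5-fold higher in Papain WT than in DPBS WT.

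Interstitial macrophage-like cells as a class were lower in H2-DMb2 and both H2-DO genes in papain libraries, on UMIs concentrated in few cells. H2-DMb2 stood at 242, 216, 141 and 51.4 CPM, H2-Oa at 66.2, 46.1, 22.7 and 15.2 CPM and H2-Ob at 78.2, 70.0, 40.8 and 21.9 CPM, and for each gene both papain libraries lay below both DPBS libraries. In WT 3 of 9 members were past 1.5-fold (background 23.2%), all lower: H2-DMb2 at -0.78 (-1.05 to -0.51), H2-Oa at -1.54 (-2.15 to -0.94) and H2-Ob at -0.94 (-1.43 to -0.44). In KO the same 3 of 9 were lower (25.7%), at -2.07 (-2.54 to -1.61), -1.60 (-2.56 to -0.67) and -1.68 (-2.45 to -0.92). B cell markers were lower too, 4 of 5 in WT (median -0.9997) and 5 of 5 in KO (median -1.13), and 34%, 38.2%, 40.5% and 37.3% of the cells held a UMI of one. In cells without such a UMI, H2-Oa was at 0, 0, 10.2 and 1.40 CPM on 0, 0, 11 and 1 UMIs. Its lower level with papain was thus not seen there. H2-DMb2 stood at 129.6, 127, 119 and 21.1 CPM in these cells, little lower with papain in WT and much lower in KO. Over the whole class, the 10 richest cells held 74.1%, 88.0%, 46.5% and 78.7% of the UMIs of H2-DMb2. They held 96.4%, 100%, 75% and 100% of those of H2-Oa and 92.3%, 89.5%, 62.0% and 84.6% of those of H2-Ob. By genotype 0 of 9 members were past 1.5-fold in DPBS (24%) and 2 of 9 in papain (22%), H2-DMb2 at -1.45 (-1.88 to -1.05) and H2-Ob at -0.90 (-1.59 to -0.24), beside 4 of 5 B cell markers lower (median -1.05). A cluster led by Rnase2a and Fbp1 scored best for interstitial macrophage markers, at 1.203, but was left unnamed and out of the class. It held 35, 51, 180 and 10 cells. Its summed classical chains stood at 1081, 1059, 3867 and 8786 CPM, higher with papain in both genotypes.

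Alveolar macrophage-like cells as a class held more of the classical chains and Cd74 in the papain libraries, in every cluster for KO but not for WT. In KO 6 of 9 members were past 1.5-fold (background 9.35%), all higher: H2-Aa at 0.75 (0.68 to 0.82), H2-Ab1 at 0.73 (0.65 to 0.80), H2-Eb1 at 0.97 (0.86 to 1.08), Cd74 at 0.69 (0.65 to 0.72), H2-DMb2 at 0.61 (0.37 to 0.84) and H2-Ob at 1.55 (0.98 to 2.13). In WT the same chains were higher by 0.33 (0.26 to 0.41), 0.45 (0.37 to 0.52) and 0.56 (0.45 to 0.66) and Cd74, at 603 against 771 CPM, by 0.35 (0.32 to 0.39), none past 1.5-fold, and H2-Ob was the 1 of 9 members past it (9.8%), at 0.78 (0.37 to 1.18). By cluster, the summed classical chains were higher with papain in 7 of 7 clusters in KO and in 5 of 7 in WT. The largest cluster, led by Slco2b1 and Mical2, went from 355.7 to 211.5 CPM in WT, with Cd74 from 578 to 372 CPM, and from 386.7 to 548 CPM in KO. The other cluster that was lower in WT went from 254 to 184 CPM. A cluster left unnamed and out of the class, although it scored best for alveolar macrophage markers (96, 83, 124 and 35 cells), stood at 463, 324, 397 and 161 CPM and was lower with papain in both genotypes. H2-DMa stood apart, at -0.01 (-0.06 to 0.04) in WT and 0.12 (0.07 to 0.18) in KO. B cell markers were higher with papain too, 4 of 5 in WT (median 0.89) and 5 of 5 in KO (median 1.67). In cells without a B cell marker UMI H2-Aa stood at 134, 157, 155 and 247 CPM and Cd74 at 567, 652, 649 and 999 CPM, and the KO ratio of H2-Aa was 0.65 and of H2-Eb1 0.73. By genotype 1 of 9 members was past 1.5-fold in DPBS (6.18%), H2-Ob lower at -1.002 (-1.53 to -0.49), and 0 of 9 in papain (8.1%), where H2-Aa stood at 0.57 (0.49 to 0.65). The lists of regulators (8 genes over the floor), peptide processing (4), turnover (3), costimulation (3) and interferon-gamma-induced genes (7) had 0 genes past 1.5-fold in Papain KO against DPBS KO.

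Monocyte-like cells differed by genotype after papain. In Papain KO against Papain WT 4 of 9 members were past 1.5-fold (background 10.1%), all higher: H2-Aa at 0.68 (0.64 to 0.72), H2-Ab1 at 0.68 (0.64 to 0.73), H2-Eb1 at 0.61 (0.55 to 0.66) and Cd74 at 0.69 (0.66 to 0.71). The median over members was 0.42, beside -0.03 over all genes. In the cells without a B cell marker UMI H2-Aa stood at 1512, 1486, 1259 and 1930.2 CPM, with a ratio of 0.62, and Cd74 at 4691 against 7359 CPM, with a ratio of 0.65, and 0 of 5 B cell markers were past 1.5-fold. Of the other lists, regulators had 1 of 8 genes lower and none higher, interferon-gamma-induced genes 2 of 7 lower (median -0.49), and peptide processing (4), turnover (3) and costimulation (4) none past 1.5-fold. In DPBS 4 of 10 members were past it (14%), all lower and all scarce: H2-Eb2 at -1.89 on 4 and 16 UMIs, H2-DMb2 at -0.90, H2-Oa at -1.23 and H2-Ob at -0.60, beside 5 of 5 B cell markers lower (median -1.96). In the cells without a B cell marker UMI the direction turned for H2-DMb2, to 0.21, and for H2-Ob, to 0.30. With papain 1 of 10 members was past 1.5-fold in WT (11.4%), H2-Eb2 at -0.77 on 13 and 16 UMIs (0.22 without doublet removal), and Cd74 stood at -0.57 (-0.59 to -0.55). In KO 2 of 9 were past it (9.06%), H2-DMb2 at 0.66 and H2-Oa at 1.18, beside 5 of 5 B cell markers higher (median 1.43).

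The genotype difference in monocyte-like cells was not even over their clusters. In the classical cluster, led by F13a1 and Vcan (67, 115, 161 and 98 cells), H2-Aa stood at 1554, 2733, 864 and 3183 CPM, H2-Ab1 at 1316, 2175, 804 and 2687 CPM, H2-Eb1 at 772, 1245, 419 and 1718 CPM and Cd74 at 5851, 9137, 3432 and 9942 CPM. Both KO libraries lay above both WT libraries for each of these 4 genes. For H2-Aa the log2 ratio of KO to WT stood at 0.81 (0.72 to 0.91) with DPBS and at 1.88 (1.80 to 1.96) with papain. For Cd74 it stood at 0.64 (0.59 to 0.69) and 1.53 (1.49 to 1.58). Cells over 1000 CPM of the classical chains made up 28.4% (18.0 to 40.7), 47.8% (38.4 to 57.3), 29.2% (22.3 to 36.9) and 44.9% (34.8 to 55.3), and the 90th percentile stood at 14305, 25086, 5898 and 26204 CPM. This cluster scored next highest for interstitial macrophage markers, whose part in the difference was not tested.

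In the cluster with both classical and nonclassical monocyte markers (256, 102, 231 and 123 cells) H2-Aa stood at 2301, 1610.1, 1689.7 and 2640.4 CPM. KO was lower in DPBS and higher in papain, where H2-Aa stood at 0.64 (0.58 to 0.70) and Cd74 at 0.74 (0.71 to 0.77). In nonclassical monocyte-like cells (323, 354, 499 and 329) H2-Aa stood at 712, 894, 911 and 835 CPM, and the Papain KO to Papain WT ratio was -0.13 (-0.20 to -0.05). That ratio pooled clusters that went different ways. From Papain WT to Papain KO H2-Aa rose from 310 to 446 CPM in the cluster led by Cd300e and Tmem26 (195 and 117 cells). It rose from 265 to 444 CPM in the one led by Cd300e and S1pr5 (139 and 118 cells). It fell from 2585 to 1868 CPM in the one led by Arhgef10l and Adgre4 (79 and 61 cells). In the shallow one led by Adgre4 and Ace (86 and 33 cells) it fell from 679 to 232 CPM. The nonclassical cells had the lowest proportion of H2-Aa to Cd74 among monocyte-like cells, 17.8 to 23.1 UMIs per 100.

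**Figure D5:**
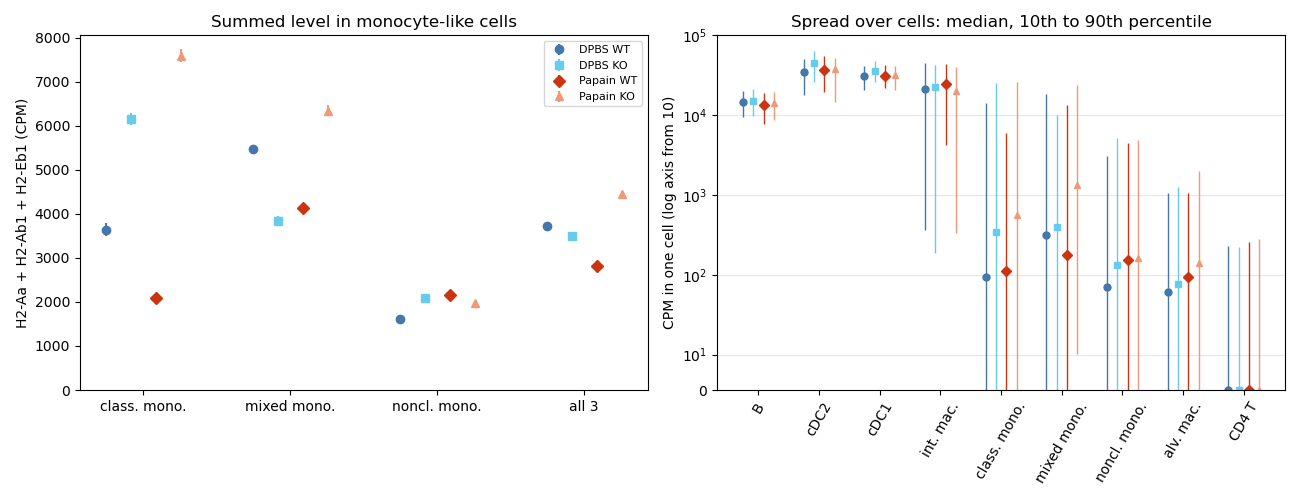
Left, summed level of H2-Aa, H2-Ab1 and H2-Eb1 (CPM) in the classical, mixed and nonclassical clusters and in all monocyte-like cells, with 1 point for each of the 4 libraries; right, the same sum per cell, with the median and the 10th to 90th percentile. Classical cells of the KO libraries lie at 6153 and 7587 CPM and those of the WT libraries at 3641 and 2087 CPM.

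CD4 T-like cells held more class II UMIs in the papain libraries, at the low levels given above. In WT 6 of 9 members were past 1.5-fold (background 17.9%), all higher, with H2-Aa at 0.69 (0.47 to 0.92), H2-Eb1 at 1.16 (0.89 to 1.44) and Cd74 at 1.25 (1.13 to 1.37). In KO 7 of 9 were higher (10.2%), with H2-Aa at 1.09 (0.86 to 1.32) and Cd74 at 1.35 (1.22 to 1.49). All 5 B cell markers were also higher, with medians of 0.90 in WT and 2.03 in KO, and 11.3%, 7.37%, 12.7% and 13.5% of the cells held a UMI of one. In the cells without one, H2-Aa stood at 26.6, 26.5, 29.1 and 31.6 CPM, with ratios of 0.13 in WT and 0.25 in KO, and Cd74 at 67.5, 63.2, 127 and 83.7 CPM, with ratios of 0.91 and 0.41. The 10 cells richest in Cd74 held 39.0%, 51.9%, 47.4% and 57.6% of its UMIs in the class. By genotype 0 of 9 members were past 1.5-fold in DPBS (12.1%) and 2 of 9 in papain (14.9%), H2-Aa at 0.67 (0.49 to 0.85) and H2-Ob, at 19.0 against 32.4 CPM, at 0.77 (0.47 to 1.07).

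Among the clusters of CD4 T-like cells the Foxp3-led cluster had the highest Cd74 in each library, at 559, 493, 821 and 1589 CPM. Its H2-Aa level, 109.95, 150.2, 136 and 418 CPM, was also the highest except in DPBS KO, where 28 cells of the cluster led by Ccr4 and Cxcr6 stood at 165 CPM. It made up 7.08%, 6.70%, 13.6% and 8.85% of the class. A B cell marker UMI was found in 22.0%, 13.3%, 20.8% and 29.8% of the cells of the Foxp3-led cluster, against 8.46%, 7.34%, 9.20% and 11.2% in the largest T-like cluster. Such shares were not particular to the Foxp3-led cluster. The cluster led by Ccr4 and Cxcr6, over all its cells, had 21.9%, 16.3%, 18.2% and 21.5%. The part of B cell RNA in the Cd74 level was not tested.

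CD8 T-like cells had 5 of 9 members past 1.5-fold with papain in WT (background 12.2%), all higher: H2-Aa at 0.62 (0.27 to 0.96), H2-Eb1 at 0.68 (0.23 to 1.12), H2-DMb1 at 1.08 (-0.19 to 2.39), H2-DMb2 at 0.84 (-0.22 to 1.90) and Cd74 at 0.62 (0.40 to 0.84), beside 2 of 4 B cell markers higher. In the cells without a B cell marker UMI the direction of Cd74 turned, at 60.4 against 50.4 CPM and a ratio of -0.26, and the 10 richest cells held 51.1% of its UMIs in Papain WT. In KO 1 of 9 was higher (9.65%), H2-Ab1 at 0.70 (0.30 to 1.10). By genotype there were 0 of 8 in DPBS (12.7%) and 1 of 9 in papain (11.4%), H2-DMb2 lower at -0.80 on 14 and 17 UMIs, with a ratio of 0.096 in the cells without a B cell marker UMI. H2-Oa, H2-Ob and H2-DMa were within 1.5-fold in all 4 comparisons.

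In ILC2-like cells few members passed the floor. With papain in WT 5 of 6 members were past 1.5-fold (background 28.5%): H2-Aa at -2.24, H2-Ab1 at -0.68, H2-Eb1 at -2.75 and Cd74 at -1.82 were lower and H2-DMa at 2.23 (0.53 to 4.60) was higher, on 27 and 3 UMIs. The ratio of H2-Ab1 rested on only 30 and 25 UMIs. In KO 2 of 3 were lower (22.8%), H2-Oa at -0.75 (-1.48 to -0.02) and Cd74 at -0.98 (-1.80 to -0.17). By genotype 5 of 5 were past it in DPBS (23.4%), H2-Oa higher at 0.64 (-0.14 to 1.43) and H2-Aa, H2-Ab1, H2-Eb1 and Cd74 lower at -3.42, -1.43, -1.79 and -1.85. In papain 3 of 5 were lower (28.3%), H2-Ab1 at -0.84 on only 12 and 30 UMIs, H2-DMa at -3.27 and Cd74 at -1.004. Cd74 had 129, 31, 70 and 25 UMIs and was highest in DPBS WT, where Cd79a, Cd79b, Ms4a1 and Fcmr were also highest relative to the B-like level. In the cells without a B cell marker UMI Cd74 stood at 67.7, 106, 129.7 and 58.4 CPM, and DPBS WT was no longer the highest library. There the ratio of Cd74 turned to 0.94 and that of H2-Ab1 to 0.64 in Papain WT against DPBS WT, and that of Cd74 to 0.65 in DPBS KO against DPBS WT.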

How the data were processed

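Immune cells sorted from lungs were profiled in 4 libraries. As deposited, the matrices hold raw UMI counts per gene and barcode, which the authors had restricted to called cells. The submitters' processing notes name Cell Ranger and mm10, and the file headers give software version 3.1.0. The annotation and any doublet removal by the authors are not given in the sources used here.

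Barcodes with over 200 genes and under 15% mitochondrial UMIs were kept, thresholds the study states for another experiment. The gene minimum left out 30, 42, 75 and 16 barcodes and the mitochondrial limit 378, 200, 375 and 145. Scrublet scored doublets (scanpy 1.11.5, Python 3.11.15), and the highest-scoring 531, 260, 511 and 260 barcodes, at 0.8% per 1000 barcodes, were removed. The threshold that Scrublet set by itself marked 4.10%, 2.76%, 3.03% and 2.63%. The libraries hold 75675956, 56430211, 74536080 and 53854420 UMIs. Cells were aligned and clustered in Seurat 5.3.0 (R 4.3.3; 2000 variable genes, 30 dimensions, resolution 0.8), without the members, Ciita, Ift20 and receptor segment genes. A cluster took the class with the best mean marker score if it reached 1.3, if at least 3 of its markers were found in 10% of the cells, and if no other lineage had more markers among the 10 leading genes. A rival lineage with 3 such markers and a score of 1 and 50% of the best left a cluster unnamed, unless the best class had at least 2 more markers among the leading genes. A cluster with such a rival between the monocyte classes was called mixed, and one scoring best for NK cells with Cd3e in 35% of its cells stayed unnamed. The marker Chil3l matched no gene row. CD4 and CD8 T cells were told apart by Cd4, Cd8a and Cd8b1 UMIs.

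UMIs were summed per class and library, and CPM, exact Poisson intervals, exact (Clopper-Pearson) intervals of shares and exact intervals of ratios were computed from the sums. A count of 0 allows up to 3 counts. The fold of 1.5 and the floor of 20 UMIs fixed what was counted, and genes were named as the 10 members, the genes of 6 lists (regulators, peptide processing, turnover, costimulation, interferon-gamma-induced genes and B cell markers), and the 5 genes most like each of 3 patterns, of which a single gene is not reported here. Ifi30 was not analysed here. Cluster leading genes and single clusters were named after values were seen. The members, lists and alternatives were chosen with earlier results of these data known. Naming thresholds, motif letters and the tables by cluster were chosen after seeing the data. Calculations used numpy 2.4.6, scipy 1.17.1, pandas 2.3.3 and edgeR 4.0.16 (trimmed mean of M-values), and were tested on simulated data.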

Additional observations from a re-analysis of the deposited data

How the results depend on the processing

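No paired analysis was possible because each group holds 1 library, and for the same reason no replicate could be left out. Of at most 90 pairs of member and class, the main counts past 1.5-fold were 21 (Papain WT against DPBS WT) and 21 (Papain KO against DPBS KO). By genotype they were 11 (DPBS KO against DPBS WT) and 13 (Papain KO against Papain WT). Beside them, the background over all genes ran by class from 9.8% to 28.5%, 7.48% to 25.7%, 6.18% to 26.1% and 8.1% to 28.3%. The counts are given only to show how they depend on the processing. In the same order of comparisons, cells without a B cell marker UMI gave 8, 13, 3 and 17. A floor of 50 UMIs gave 5 in DPBS KO against DPBS WT, and the mean over cells gave 13 in Papain WT against DPBS WT. The summed level of H2-Aa, H2-Ab1 and H2-Eb1, as mean log2 ratio to B-like cells, moved in CD4 T-like cells from -6.70 to -7.48 without B cell marker UMIs and to -5.06 without doublet removal. Without doublet removal it also moved from -7.52 to -5.37 in CD8 T-like and from -4.92 to -4.30 in alveolar macrophage-like cells. In monocyte-like cells it moved from -1.93 to -2.20 with the mean over cells and with thinning to 1000 UMIs.

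Of 315 single ratios and levels under 7 alternatives, 1801 of 2184 values stayed within their error, 374 moved and 9 changed sign. Of the 9, 7 did so in cells without a B cell marker UMI: Cd74 to -0.26 in CD8 T-like cells (Papain WT against DPBS WT), Cd74 to 0.65 (DPBS KO against DPBS WT) and 0.94 (Papain WT against DPBS WT) and H2-Ab1 to 0.64 (Papain WT against DPBS WT) in ILC2-like cells, H2-DMb2 to 0.096 in CD8 T-like cells (Papain KO against Papain WT), and H2-DMb2 to 0.21 and H2-Ob to 0.30 in monocyte-like cells (DPBS KO against DPBS WT). The others were H2-Eb2 in conventional DC type 2-like cells with the mean over cells (DPBS KO against DPBS WT, -0.14) and in monocyte-like cells without doublet removal (Papain WT against DPBS WT, 0.22). The cause was not tested. H2-Oa and H2-Ob in macrophage-like, monocyte-like and ILC2-like cells rest on few UMIs, and a value of 0 there says only that no UMI was seen at this depth.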
